A study of Rattus norvegicus with 4 samples.

Results

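The genes described here are 10 components of Notch signalling: the receptors Notch1, Notch2 and Notch3, the ligands Jag1 and Jag2, the DNA-binding partner Rbpj, and the target genes Hes1, Hey1, Hey2 and Heyl. They were read from every probe set, a group of short probes against a single transcript, that the platform annotation gives exactly 1 of these symbols. This gave 14 of the 31099 probe sets on the array, for all 10 genes of 14217 with a symbol of their own. After IL-1b, Hey2 fell 4.95-fold and Jag1 fell 2.56-fold, and none of the 6 other members tested passed. Smooth muscle cells from the aorta of Sprague-Dawley rats, which build the contractile layer of the vessel wall, had been cultured for 5 days in 10% serum and 3 days without serum. A pair of samples then received interleukin-1 beta (IL-1b), an inflammatory cytokine, at 2.5 ng/mL for 24 hours, and the other 2 received the vehicle, 0.1% bovine serum albumin (BSA). Total RNA of each sample was hybridised to an Affymetrix array of its own. The labels number the samples in each group without saying whether they came from separate cultures, so the spread between them may be technical.

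Notch receptors are cut at the cell surface after a ligand on a neighbouring cell binds them, and their freed intracellular part joins RBPJ on DNA and switches on genes of the HES and HEY families. These target genes encode repressors of transcription. In the artery wall Notch3 is the receptor best known in smooth muscle, JAG1 on neighbouring cells promotes the contractile state, and HEY proteins act downstream in vascular development.

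The upstream sequences of Hey2, Hes1 and Jag1 are shown because the 2 members that fell were Hey2 and Jag1, while Hes1 is a classical target whose level differed little. Each is the stretch of 250 bases before the RefSeq transcript start on build GRCr8, 5′ to 3′ on the gene's strand, with matches to the RBPJ core TGGGAA on either strand in capitals. Hey2 lies at chr1:28640850-28641099 (plus strand), Hes1 at chr11:84213046-84213295 (minus strand) and Jag1 at chr3:144894884-144895133 (minus strand).
Hey2: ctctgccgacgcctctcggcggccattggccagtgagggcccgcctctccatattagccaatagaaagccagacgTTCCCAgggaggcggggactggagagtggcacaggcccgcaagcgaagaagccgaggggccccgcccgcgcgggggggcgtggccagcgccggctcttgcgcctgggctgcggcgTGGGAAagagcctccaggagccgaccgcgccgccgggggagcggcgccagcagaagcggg
Hes1: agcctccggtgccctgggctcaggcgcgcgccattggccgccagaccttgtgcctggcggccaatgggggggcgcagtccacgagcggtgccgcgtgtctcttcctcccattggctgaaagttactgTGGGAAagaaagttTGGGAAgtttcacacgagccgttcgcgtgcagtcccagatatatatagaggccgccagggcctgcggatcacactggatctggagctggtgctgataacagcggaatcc
Jag1: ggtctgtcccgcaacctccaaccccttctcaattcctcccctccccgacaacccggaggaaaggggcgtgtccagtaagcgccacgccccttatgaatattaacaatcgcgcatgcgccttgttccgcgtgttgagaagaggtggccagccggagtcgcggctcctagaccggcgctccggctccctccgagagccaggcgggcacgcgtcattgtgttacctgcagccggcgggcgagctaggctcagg
Hes1 held 2 matches on its own strand, beginning 123 and 109 bases before the start. Hey2 also held 2, on opposite strands, with leftmost bases 175 and 60 bases before the start. In both genes 1 match was part of the longer form GTGGGAA, which contains the core. Jag1 held no core match. Windows were found for 9 of the 10 members, and among the others only Rbpj, whose 2 overlapping windows held 2 distinct matches, had the core. Of 27457 gene windows of this length, 21.6% held the core and 5.22% the longer form. The class C site CACGCG, a sequence that HES and HEY proteins can bind, matched 2 times each in the windows of Jag1, Hes1 and Notch2 and 1 time each in those of Jag2 and Heyl, and 7.58% of all windows held it. The E box CACGTG, another such sequence, matched in no member's window and in 5.79% of all windows. The kappa B consensus, which NF-kB binds, matched in the windows of Notch2 and Jag2 and in 6.41% of all windows.

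Values are MAS5 intensities on a linear scale, in which each array had been brought to the same trimmed mean. The background of each array was the 95th percentile over 26 dim Bacillus control probe sets. All 8 smooth muscle markers on the array (such as Acta2, Myh11 and Cnn1) were above background on all 4 arrays. Of 9 endothelial markers, 6 were below background on all 4 arrays, among them Pecam1, Vwf and Cldn5, which define that cell type. Esam was above background on all 4 arrays, and Tek on both vehicle arrays and 1 IL-1b array. Neither passed the test. Kdr, too dim to be tested, read 5.16 and 5.64 with vehicle and 54.0 and 36.1 with IL-1b. The summed intensity of the 9 endothelial markers was 172 to 204 with vehicle and 142 to 339 with IL-1b. Of 7 macrophage and leukocyte markers 1 (Cd14) was above background on all 4 arrays. Their summed intensity was 658 to 712 with vehicle and 978 to 1056 with IL-1b. Most of it was Cd14, at 616 and 578 with vehicle and 796 and 950 with IL-1b, which did not pass the test. Csf1r, too dim to be tested, was lower on both IL-1b arrays. The sum over 4 fibroblast markers was 538 to 582 with vehicle and 1125 to 1707 with IL-1b. Much of it was Lum, at 449 and 488 with vehicle and 658 and 1234 with IL-1b, which did not pass the test. Dpt and Pdgfra passed as higher. Dcn was too dim to be tested and its groups overlapped, at 37.4 and 16.5 with vehicle and 6.75 and 38.6 with IL-1b. Smooth muscle markers summed to 31702 and 32279 with vehicle and to 11731 and 8746 with IL-1b, and 7 of the 8 fell. The part of these shifts in the Notch values was not tested, and in RNA of whole cultures fewer cells of a type and less RNA per cell cannot be told apart. IL-1b replicate 1 stood apart, with background at 60.8 against 18.8 to 29.4 on the other arrays and hybridisation controls at 3.50 times the vehicle level.

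Fold changes were computed on log2 of intensity plus an offset of 5.49, which understates the change of dim genes, and were tested with limma over 18625 probe sets with Benjamini-Hochberg adjustment and a threshold of 0.05. A gene was counted by its brightest probe set. Of the 10 members, 8 passed the filter on dim values, and 2 of these were called, both lower. Over all 10000 genes tested, 15.3% were called in either direction, 7.19% higher and 8.13% lower. The groups did not overlap for 6 of the 8 tested members, against 61.3% of all genes, so lack of overlap alone says little with 2 arrays per group. The median log2 fold change over the 8 members was 0.02, and over all genes it was -0.01. The median size of the change, without its sign, was 0.71 in the members and 0.38 over all genes. That 0.71 lies between Notch2 (0.67 ± 0.42 SE) and Jag2 (0.75 ± 0.64), neither of which passed. It is therefore not read as a larger response of the members. Without IL-1b replicate 1 the log2 fold change was 1.14 for Notch2 and -1.76 for Notch3, against 0.67 and -0.95 with all arrays. Calls were then more common over the whole table too, so no count of members is read from that setting. Jag1 and Hey2 stayed lower whichever array was left out.

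**Figure D1:**
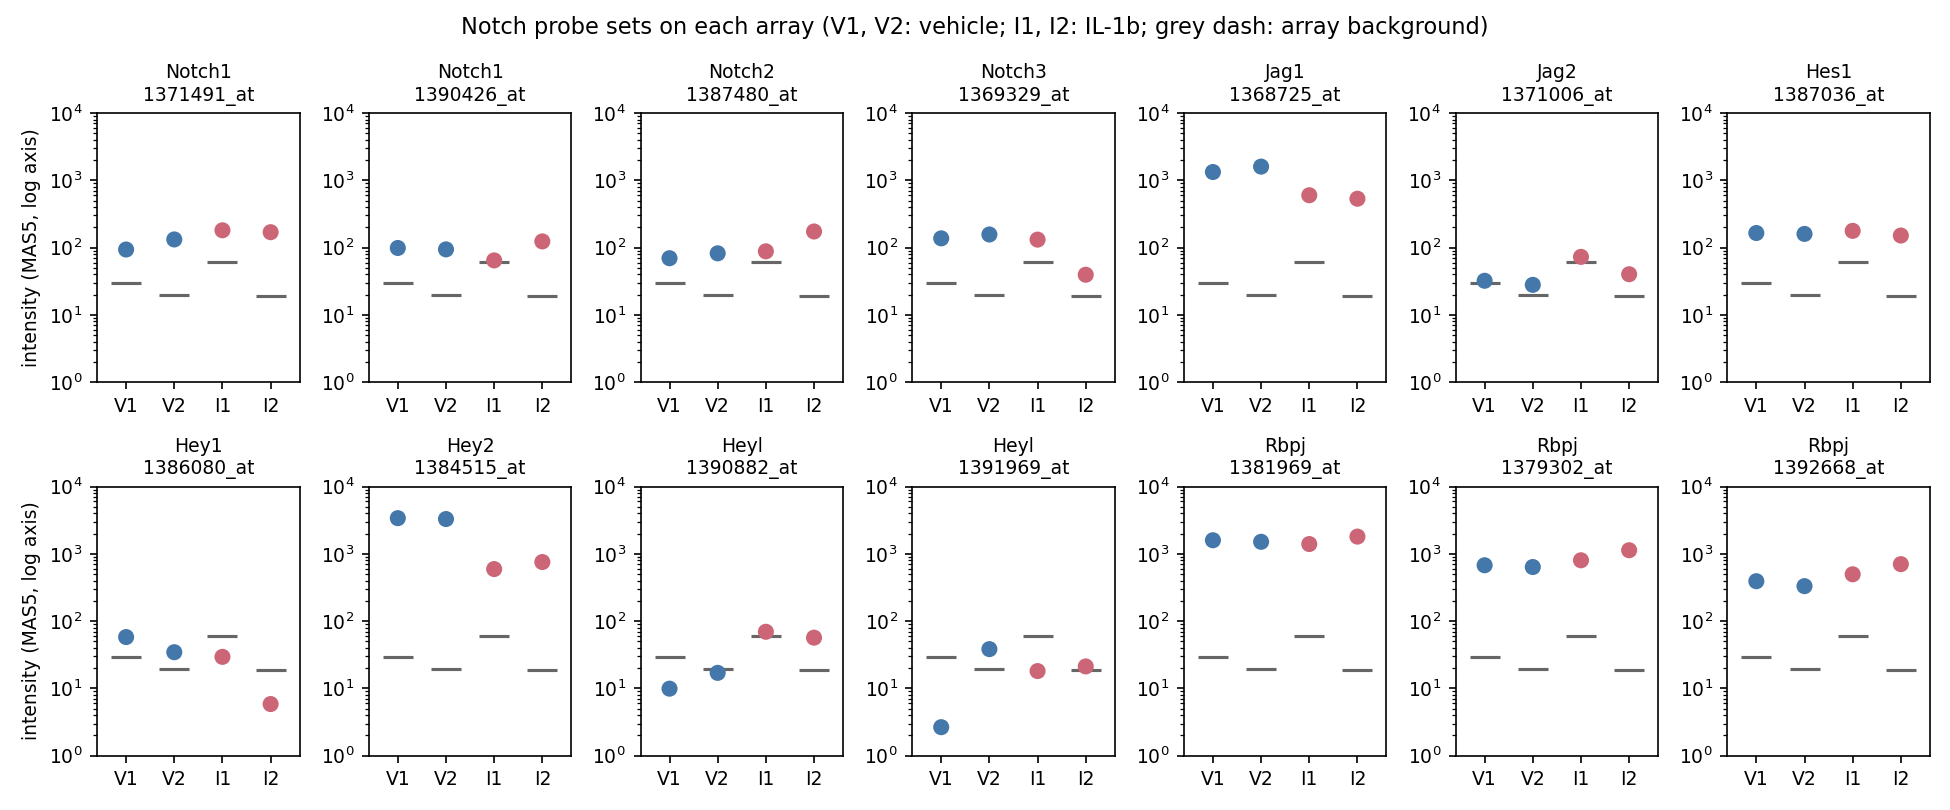
Intensity (MAS5, log axis) of the 14 Notch probe sets on the 2 vehicle arrays (V1, V2, blue) and the 2 IL-1b arrays (I1, I2, red), with each array's background as a grey dash. Hey2 and Jag1 lie well above background on all arrays and are lower on both IL-1b arrays, while Hey1, Heyl and Jag2 lie near or below background.

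None of the receptors passed the test. Notch1, which is better known in endothelium, read 93.6 and 132 with vehicle and 181 and 169 with IL-1b at its brighter probe set. Both IL-1b values were above both vehicle values, and the log2 fold change was 0.63 ± 0.29 (SE; 95% interval -0.07 to 1.33; adjusted p = 0.23). The other Notch1 probe set read 98.7 and 94.0 with vehicle and 64.5 and 124 with IL-1b. There the groups overlapped and the log2 fold change was -0.10 (adjusted p = 0.90), or 0.34 without IL-1b replicate 1. No common direction was therefore seen for Notch1.

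Notch2, the receptor that shares many functions with Notch3 in smooth muscle, read 69.5 and 82.1 with vehicle and 88.0 and 173 with IL-1b. Both IL-1b arrays were higher, but they were far apart, and the log2 fold change was 0.67 ± 0.42 (SE; interval -0.32 to 1.67; adjusted p = 0.35). Without IL-1b replicate 1 it was 1.14 (adjusted p = 0.012) and without IL-1b replicate 2 it was 0.21. Notch3, the receptor characteristic of arterial smooth muscle, read 137 and 157 with vehicle and 131 and 39.5 with IL-1b. Replicate 1 lay just under the vehicle arrays and replicate 2 far under them. The log2 fold change was -0.95 ± 0.54 (SE; interval -2.23 to 0.32; adjusted p = 0.31), and it was -1.76 without IL-1b replicate 1 (adjusted p = 1.2e-04) and -0.15 without IL-1b replicate 2. For Notch2 and Notch3 the value thus rested on which IL-1b array was used. Where an IL-1b array is left out, the lone one is assumed to vary like the vehicle arrays, which were close to each other, so these adjusted p are small.

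Of the ligands, Jag1 fell. It read 1327 and 1597 with vehicle and 599 and 532 with IL-1b, a mean of 1462 ± 191 against 566 ± 47.5 (SD, n = 2). Both IL-1b values were below both vehicle values, by more than the spread in either group. The log2 fold change was -1.36 ± 0.16 (SE; interval -1.74 to -0.98; limma adjusted p = 0.0022). Leaving out each array in turn gave -1.49 to -1.22. Jag2, a second ligand of the same family, was near background on all arrays, at 32.1 and 27.9 with vehicle and 72.8 and 40.2 with IL-1b. Both IL-1b arrays were higher, but on IL-1b replicate 1 background was also higher, and the log2 fold change of 0.75 ± 0.64 did not pass (SE; interval -0.76 to 2.27; adjusted p = 0.49). Log2 of Jag1 minus log2 of Jag2 was taken within each array, with the offset of 5.49 added to both intensities. It was 5.15 and 5.58 with vehicle and 2.95 and 3.56 with IL-1b, a shift of -2.11. This is the change of Jag1 less that of Jag2. Since Jag2 was near background and did not pass, no change of ligand balance is read from it. A two-sided exact permutation test of this shift cannot go below 0.33 with 2 samples per group. It gave that value, as it must for groups that do not overlap, so it decides nothing here.

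Rbpj, which binds DNA and recruits the receptor's intracellular part, had 3 probe sets. At the brightest the vehicle arrays read 1589 and 1507 and the IL-1b arrays 1396 and 1801, so the groups overlapped. The log2 fold change there was 0.04 ± 0.17 (SE; interval -0.36 to 0.43; adjusted p = 0.91). At the next it was 0.53 ± 0.19 (adjusted p = 0.13), from 675 and 636 with vehicle to 801 and 1130 with IL-1b. At the dimmest it was 0.71 ± 0.21 (adjusted p = 0.080), from 391 and 331 to 496 and 702. In these other 2 probe sets both IL-1b arrays were above both vehicle arrays, without passing the threshold. With an array left out the log2 fold change was 0.29 to 0.78 at the brighter of these 2 and 0.46 to 0.95 at the dimmest. The probe sets of Rbpj thus disagreed on whether its transcript was higher.

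The target genes did not move together. Hey2, a repressor of the HEY family expressed in arterial smooth muscle, read 3385 and 3283 with vehicle and 593 and 754 with IL-1b. Its mean was 3334 ± 72.0 with vehicle and 673 ± 114 with IL-1b (SD, n = 2), and the groups were far apart. The log2 fold change was -2.31 ± 0.16 (SE; interval -2.70 to -1.92; limma adjusted p = 2.4e-04). It was -2.48 to -2.14 when each array was left out in turn. Hes1, the most widely used reporter of Notch activity, read 165 and 160 with vehicle and 177 and 151 with IL-1b. The groups overlapped, and the log2 fold change was 0.01 ± 0.25 (SE; interval -0.58 to 0.60; adjusted p = 0.98). That interval does not reach the change of Hey2, and a change of Hes1 within it was not detectable with 2 arrays per group. On the same offset scale, log2 of Hey2 minus log2 of Hes1 was 4.32 on both vehicle arrays and 1.71 and 2.28 with IL-1b. The shift of -2.32 is the change of Hey2 less that of Hes1 and adds no separate result. For it the exact two-sided permutation test again gave 0.33, the smallest it can give, and decides nothing.

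Hey1 and Heyl, the other HEY family members, were too dim to be tested. Hey1 read 57.9 and 34.5 on the vehicle arrays, above background, and 29.4 and 5.85 on the IL-1b arrays, below background there. It was at least 1.32-fold lower with IL-1b, taking background in place of the dim values. This bound rests on IL-1b replicate 2, against which alone it was at least 2.37-fold lower, since background on IL-1b replicate 1 was above both vehicle values and that array alone gave no bound. Heyl went the other way at its brighter probe set, with 9.90 and 17.0 on the vehicle arrays, below background, and 69.4 and 56.7 on the IL-1b arrays, above it. This made it at least 2.61-fold higher, or at least 1.93-fold for IL-1b replicate 2 against vehicle replicate 1 alone. Its 69.4 on IL-1b replicate 1 was close to that array's background of 60.8. The other Heyl probe set read 2.65 and 38.3 with vehicle and 18.1 and 21.2 with IL-1b, so its groups overlapped. With no filter on dim probe sets the log2 fold changes were -1.34 for Hey1 (adjusted p = 0.49) and 1.87 and 0.41 for the 2 Heyl probe sets (adjusted p = 0.23 and 0.88), and none passed.

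**Figure D2:**
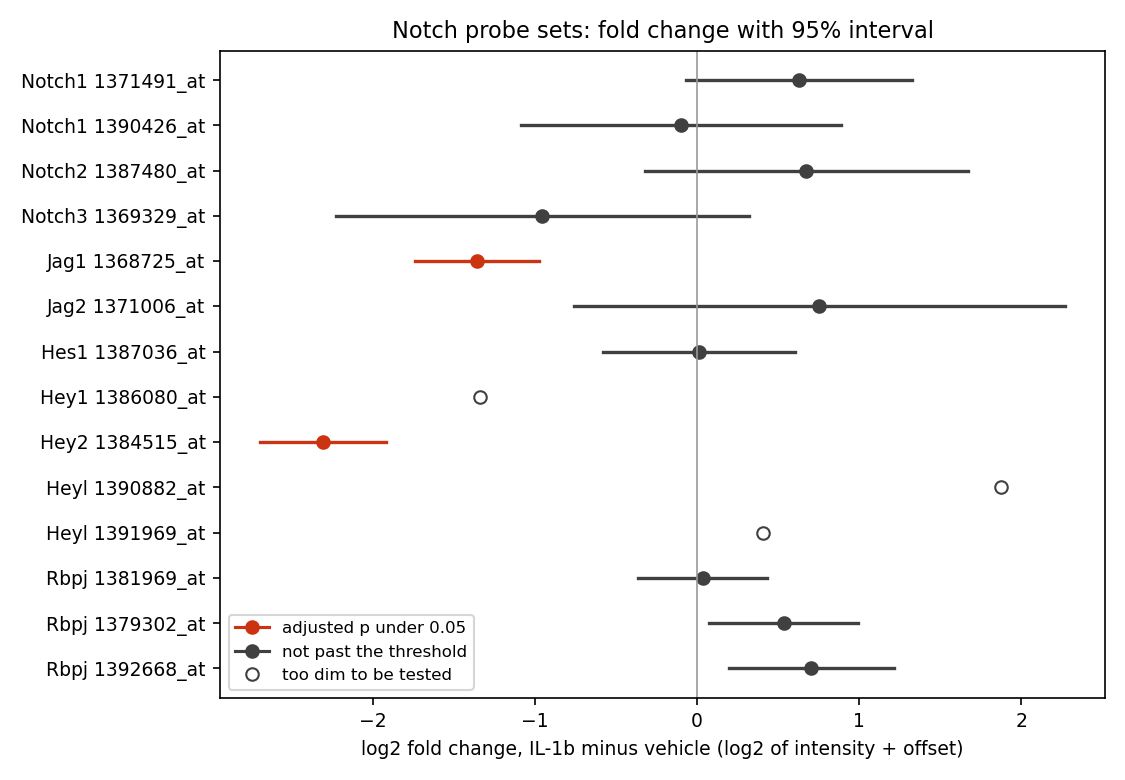
Log2 fold change (IL-1b minus vehicle) of each Notch probe set with its 95% interval from limma; red marks an adjusted p under 0.05, and open circles mark probe sets too dim to be tested. The intervals of Jag1 (-1.74 to -0.98) and Hey2 (-2.70 to -1.92) lie apart from 0, and that of Hes1 (-0.58 to 0.60) is centred near 0.

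**Figure D3:**
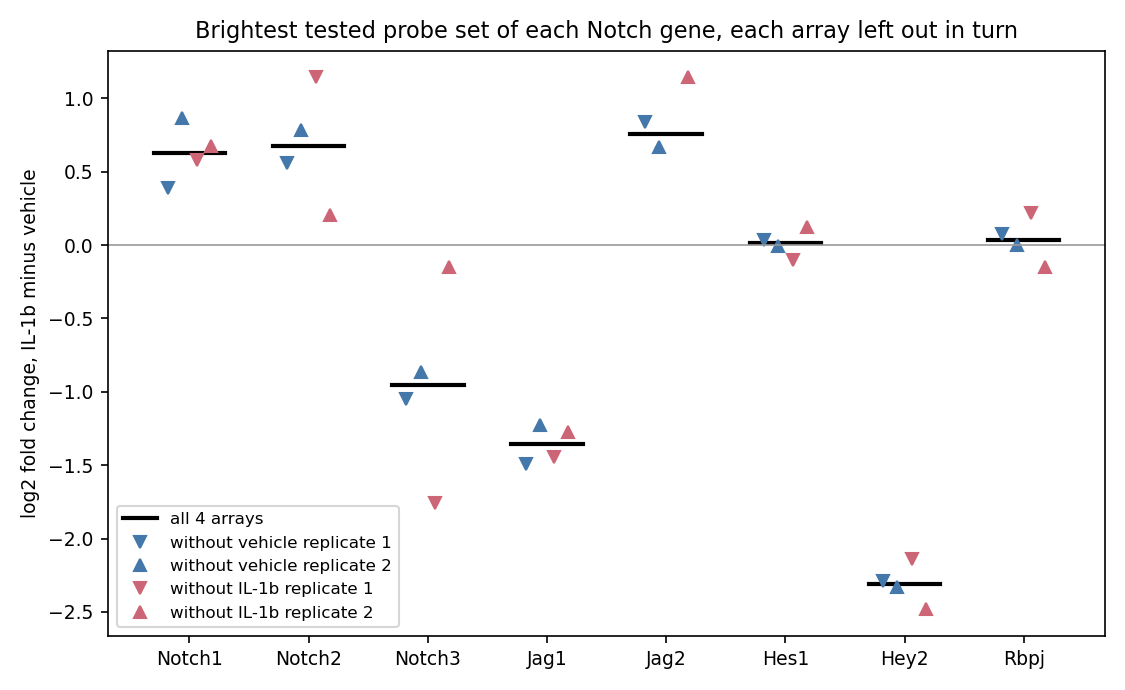
Log2 fold change of the brightest tested probe set of 8 Notch genes with all 4 arrays (black bar) and with each array left out (triangles); Jag2 has no triangle without IL-1b replicate 1, where it fell under the filter. Jag1 and Hey2 stay between -1.49 and -1.22 and between -2.48 and -2.14, while Notch3 spans -1.76 to -0.15.

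Among 911 genes of similar brightness that also passed the test, the genes whose log2 values over the 4 arrays, taken relative to the vehicle mean, lay closest to those of Hey2 were Itpr1, Hilpda and Rgs5. Their Euclidean distances from Hey2 were 0.14, 0.16 and 0.16 log2 units. Itpr1, the calcium release channel of the endoplasmic reticulum, read 1177 and 1249 with vehicle and 229 and 270 with IL-1b. Hilpda, a lipid droplet protein, had a log2 fold change of -2.24, and Rgs5, a regulator of G protein signalling abundant in mural cells, of -2.40. This likeness is over only 4 arrays in 2 groups and is a description.

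The rest of the pathway was read from a list of 73 genes, of which 61 were on the array and 51 were tested. Of these 4 rose, 7 fell and 40 did not pass, so 21.6% were called against 15.3% of all genes. The median log2 fold change was -0.17. The list includes 5 smooth muscle genes reported as Notch targets, 4 of which fell, and without the 5 genes 7 of 46 (15.2%) were called. The 4 that fell are also among the smooth muscle markers counted above as fallen, so they are not a separate result. The 11 calls rest on few arrays. Without vehicle replicate 1 or vehicle replicate 2, 3 of the 11 remained (Bhlhe40, Acta2 and Smtn), with 4 calls in the list each time. Calls over the whole table were fewer too without a vehicle array, so a call lost there is not read as a trait of its gene. Without IL-1b replicate 1 or 2 all 11 kept their direction. Calls were then more common over the whole table too, so they are not counted here.

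Proteases that process the receptor had 2 of 7 tested members higher and 0 lower, against 7.19% higher and 8.13% lower over all genes. Furin, which cuts the receptor during its maturation, read 459 and 538 with vehicle and 754 and 774 with IL-1b, a log2 fold change of 0.62 ± 0.16 (SE, adjusted p = 0.046). Adam17, a sheddase able to cut Notch at the cell surface, read 1058 and 1049 with vehicle and 1583 and 1536 with IL-1b. Its log2 fold change was 0.56 ± 0.13 (adjusted p = 0.036). Under median centring neither Furin nor Adam17 passed (limma adjusted p = 0.63 and 0.64). Adam10, the main sheddase of ligand-bound Notch, named after its values were seen, read 115 and 135 with vehicle and 218 and 416 with IL-1b. Its log2 fold change of 1.23 ± 0.34 missed the threshold (adjusted p = 0.056), and was 0.78 to 1.69 with an array left out. Its other probe set was at 1.15 ± 0.46 (adjusted p = 0.17). Genes elsewhere in the list with a similar adjusted p, also named after their values were seen, went both ways. Tle4 (-1.01, adjusted p = 0.054) and Spen (-0.82, 0.065) were lower, and Myc (0.57, 0.057) and Tle3 (0.60, 0.063) higher. The 3 tested components of gamma-secretase other than Psen2 (Ncstn, Aph1a and Psenen) had log2 fold changes of -0.16 to 0.20, and Psen2 one of 0.67 (adjusted p = 0.089).

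Among proteins that control receptor turnover, 1 of 8 rose and 2 fell at the brightest probe set, against 7.19% and 8.13% of all genes. Dtx2, a Deltex ubiquitin ligase, rose from 183 ± 18.9 to 375 ± 28.1 (SD, n = 2; log2 fold change 1.02 ± 0.20 SE; adjusted p = 0.019). Its relative Dtx3l fell from 544 ± 59.1 to 275 ± 61.2 (-0.98 ± 0.21; adjusted p = 0.025). Numb, an endocytic inhibitor of Notch, fell by 0.93 on the log2 scale at its brighter probe set (adjusted p = 0.045), from 669 and 602 with vehicle to 263 and 414 with IL-1b. Its other probe set gave -0.02 (adjusted p = 0.96), so the Numb probe sets disagreed. Without IL-1b replicate 1 the change at the brighter one was -0.61. Nedd4, a ubiquitin ligase named after its values were seen, was not called at its brightest probe set (-0.17, adjusted p = 0.69). Another of its probe sets was lower, at -0.65 ± 0.15 (SE, adjusted p = 0.035), but did not pass without vehicle replicate 1 or 2 (0.38 and 0.53).

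Co-repressors that act with RBPJ had 1 of 11 members lower and 0 higher at the brightest probe set. Over all genes 8.13% were lower and 7.19% higher. Ctbp2 fell from 1152 ± 116 to 689 ± 36.0 (SD, n = 2; log2 fold change -0.73 ± 0.15 SE; adjusted p = 0.021). Ncor1, a subunit of a histone deacetylase complex named after its values were seen, had lower values on both IL-1b arrays at all 3 probe sets. Only its middle one was called, at -1.02 ± 0.26 (SE, adjusted p = 0.045), and that call was lost when vehicle replicate 1 or 2 was left out. The brightest was at -0.51 (adjusted p = 0.11), and at -0.64 to -0.37 with an array left out. Of 6 co-activators, among them Maml1, Maml2 and Ep300, and of 5 ligand-modifying enzymes tested, none passed. The log2 fold changes of the co-activators ran from -0.72 to 0.73. The ligands of the Delta family were dim. Dll4, named after its values were seen, read 22.4 and 23.6 with vehicle and 78.6 and 43.4 with IL-1b (log2 fold change 1.17, adjusted p = 0.31). Notch4 was too dim to be tested, and its brightest probe set was above background on 1 of the 4 arrays.

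A further list held other targets together with relatives of the target genes. Of its 7 tested genes, 1 rose and 0 fell at the brightest probe set, against 7.19% and 8.13% of all genes. Bhlhe40, a basic helix-loop-helix repressor related to the HEY proteins, read 67.8 and 76.0 with vehicle and 292 and 464 with IL-1b, with no overlap. Its log2 fold change was 2.27 ± 0.30 (SE, adjusted p = 0.0035), and 1.95 to 2.60 with an array left out. Bhlhe41, Nrarp, Hes5 and Ccnd1 did not pass at the brightest probe set and were named after their values were seen. Bhlhe41, a close relative of Bhlhe40, read 120 and 168 with vehicle and 4.61 and 68.0 with IL-1b (log2 fold change -2.44, adjusted p = 0.14). On IL-1b replicate 1 it was below background, and leaving out IL-1b replicate 1 or 2 gave -1.01 or -3.87. Nrarp, a feedback inhibitor induced by Notch, read 103 and 93.0 with vehicle and 217 and 103 with IL-1b (0.59, adjusted p = 0.40). Hes5 read 79.9 and 66.3 with vehicle and 113 and 21.6 with IL-1b (-0.47, adjusted p = 0.72). In Nrarp and Hes5 the groups overlapped. With an array left out Nrarp ran from 0.06 to 1.11 and Hes5 from -1.53 to 0.59. Ccnd1, the cell cycle regulator cyclin D1, missed the threshold at its brightest probe set (0.86 ± 0.26 SE, adjusted p = 0.076), which read 1725 and 986 with vehicle and 2253 and 2506 with IL-1b. It was at 0.46 to 1.26 there with an array left out. Its other 2 probe sets were called higher, at 1.33 ± 0.15 (adjusted p = 0.0019) and 0.84 ± 0.16 (0.015), the latter not without vehicle replicate 2 (adjusted p = 0.29). Both missed the threshold under median centring (adjusted p = 0.083 and 0.33).

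The 4 smooth muscle genes that fell were Smtn, Acta2, Tagln and Myh11, which encode contractile or actin-binding proteins, with log2 fold changes of -2.10, -1.65, -1.19 and -0.82. Pdgfrb, a growth factor receptor reported as a direct Notch3 target and named after its values were seen, read 1241 and 1218 with vehicle and 1596 and 1388 with IL-1b. Its log2 fold change was 0.27 ± 0.14 (SE; interval -0.07 to 0.62; adjusted p = 0.28), and 0.17 to 0.38 with an array left out. Tagln and Myh11 did not pass when either vehicle array was left out (adjusted p = 0.076 and 0.092 for Tagln, 0.18 and 0.41 for Myh11, without vehicle replicates 1 and 2).

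**Figure D4:**
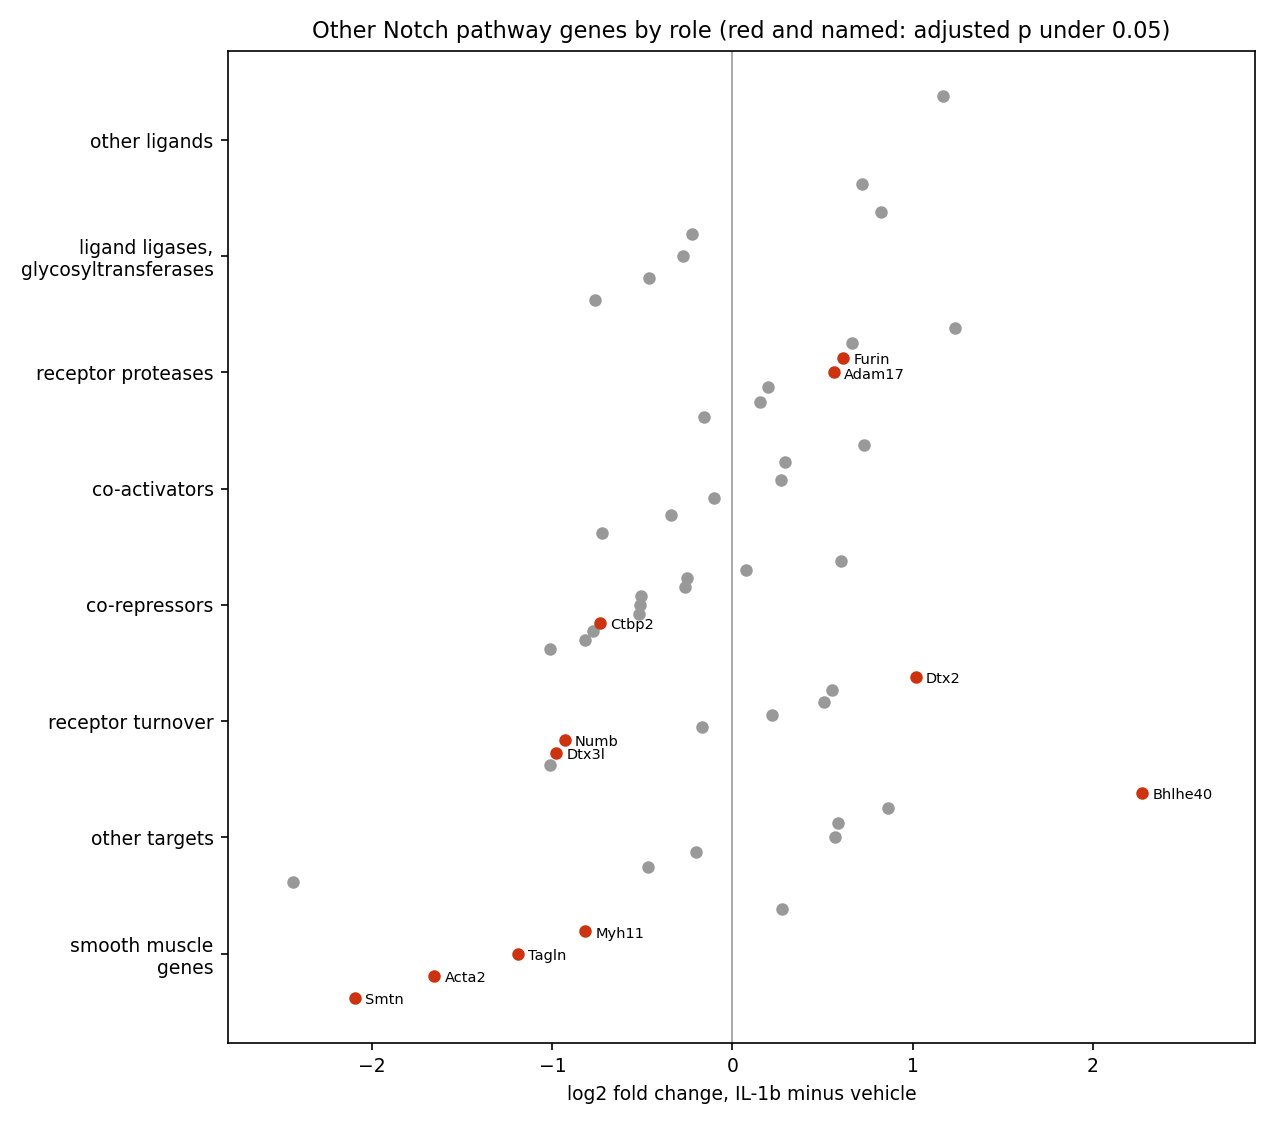
Log2 fold change (IL-1b minus vehicle) of 51 other Notch pathway genes by role, each point the brightest probe set of a gene; red points with names have an adjusted p under 0.05. Bhlhe40 (2.27) is the highest, and 4 of 5 smooth muscle genes lie between -2.10 and -0.82. The row of other targets also holds relatives of the target genes.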

How the data were processed

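The authors deposited linear intensities, a value per probe set and array, and the submitters' processing notes name MAS5 without a version. The trimmed mean of every array (2% off each end) came to 250.1, and the arrays were therefore not scaled again.

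The 57 control probe sets were left out. Probe sets were kept when their mean of log2(intensity + 5.49), the offset being the 10th percentile of all values, was at or above the 40th percentile (5.37). These 18625 probe sets were analysed with limma 3.58.1 under R 4.3.3 (lmFit, eBayes with an intensity trend; 2 residual and 4.91 prior degrees of freedom). The arrays' number limits the precision. On simulated data of the same 18625 probe sets, 50 were changed at each size, far fewer than the 2503 called in the data. For IL-1b against vehicle, 12% of changes of 1, 46% of 2, 62% of 3 and 72% of 5 on the log2 scale were recovered. With so few changed, the Benjamini-Hochberg adjustment is stricter than in the data, so these shares can understate recovery there.

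Symbols came from the platform annotation: 20826 probe sets had 1 symbol, 436 several and 9780 none listed. Of those with 1, 99.7% matched a current gene by identifier, and 0 symbols changed. Upstream sequences are RefSeq's, on GRCr8; a match is a description of letters. Named genes were all members, all listed pathway genes past the threshold at their brightest probe set, and the 3 genes most like a called member. The members and lists were chosen with earlier results of these data known. Alternatives varied the offset, scaling, filter, variance model, replicate block, threshold, probe set choice and arrays.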

Additional observations from a re-analysis of the deposited data

How the results depend on the processing

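Jag1 and Hey2 were called lower in all 17 alternatives run, with adjusted p up to 0.049 and 0.020 (both without the intensity trend). Over all arrays left out in turn, the members called numbered 2 to 4, the other pathway genes called 4 to 33 and all probe sets called 1426 to 8794, against 2, 11 and 2503 with all arrays. Median centring moved the median log2 fold change of all probe sets from 0.02 to -0.19 and gave 5 pathway calls and 1634 probe sets, of which 34.4% were higher against 47.1%. Relative to that shift Jag1 was at -1.56 and Hey2 at -2.51. Without the intensity trend 2 pathway genes and 963 probe sets were called, with an adjusted p under 0.01 there were 4 and 1222, and with at least 2-fold 5 pathway genes. With the replicate block 17 pathway genes were called and the dimmest Rbpj probe set passed (adjusted p = 0.035); the numbers are not stated to pair samples, and same-numbered arrays deviated together with r = 0.09 across probe sets. Of 138 member values under alternatives, 124 kept direction and call, 6 passed newly and 8 turned sign, and none of these 8 was past the threshold. Hes1 was at -0.029 with quantile normalization, -0.19 with median centring and -0.10 to 0.12 with an array left out. The brightest Rbpj probe set was at -0.17 with median centring and -0.15 to 0.22 with an array left out, the dimmer Notch1 probe set at -0.54 to 0.34 and Hes5 at -1.53 to 0.59. The cause of these shifts was not tested. Signal near background limits Hey1, Heyl, Jag2 and Dll4.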
